A study of Mus musculus with 21 samples.

Results

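Nutrient transporters of the Slc families are membrane proteins that carry amino acids, peptides, sugars, monocarboxylates and fatty acids across the surface or the inner membranes of a cell. The members were the genes of 12 families (Slc1, Slc2, Slc3, Slc5, Slc6, Slc7, Slc15, Slc16, Slc27, Slc36, Slc38 and Slc43), found by the pattern of the gene symbol, a rule that uses no measured value. The families, and the lists of carriers used below, were nonetheless chosen with earlier results of these data known. Counts by list are therefore descriptive. On the array 205 probe sets carried such a symbol, for 111 of the 18194 genes measured. The probe set with the highest mean over the sorted arrays stood for each gene. A filter kept a gene when it lay above the median of its array on at least 2 of the 20 sorted arrays, and 74 members passed it among 11825 genes. The other 37 members are given by level only. The pattern also took 4 symbols that name no carrier (Slc2a4rg-ps, Slc36a1os, Slc6a19os and Slc7a6os), which leaves 107 carriers, 72 of them past the filter.

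In absorptive cells of the small intestine these carriers work in series. Apical carriers of the brush border, many driven by sodium or protons, take up sugars, peptides and amino acids that surface enzymes release, and basolateral carriers pass them on towards the blood. Dividing cells rely on another set, exchangers and uptake carriers for neutral, cationic and branched amino acids and for glucose, several of which are known targets of the amino acid response.

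RNA came from small intestine of mice in 21 samples, each on its own Affymetrix array. Cells were sorted for TdTomato, a red reporter protein, which by the labels marked those positive for Mist1 (a transcription factor of secretory cells), and divided by flow cytometry into a fraction low and a fraction high in the surface protein CD24, written CD24lo and CD24hi. Both fractions were profiled in 5 conditions, on 2 arrays for each fraction and condition. The conditions were untreated, Lgr5-ablated (loss of cells that express Lgr5, a stem cell receptor; the sample titles read DT), irradiated with 10 Gy, treated with doxorubicin (a drug that damages DNA), and NICD-expressed, an abbreviation the labels do not spell out and which elsewhere is often used for the signalling part of Notch. The labels give no strain, age, promoter or time after treatment, and do not say that replicates came from separate animals, so p-values measure only the spread between these samples. Whole intestine, with a cell type label of villi, was 1 array and entered no test. Array medians lay between 101 and 158 in sorted cells and at 62.7 in whole intestine, and precision is limited by how many arrays there are. NICD CD24hi replicate 2 was unlike the others in its controls: the brightest cre spike-in reached 75343, where no other array passed 48833, and actin read 1.03 as 3' over 5'.

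Marker genes were set beside the labels. Bhlha15, the gene of Mist1, and Cd24a were both higher in CD24hi. The summed signal of 8 enterocyte markers was 55615 to 63480 in untreated CD24lo and 20194 to 23730 in untreated CD24hi, and all 8 were lower in CD24hi on average over the conditions. Stem cell markers went the other way, at 17567 to 20041 against 39854 to 42835 for 7 genes, and all 7 were higher in CD24hi on average. Also higher on average were 4 of 4 tuft cell markers (208 to 359 in untreated CD24lo against 962 to 1563 in untreated CD24hi), 4 of 5 Paneth cell markers (63159 to 76135 against 75325 to 101167) and 4 of 9 enteroendocrine markers (10653 to 14640 against 12047 to 13401). Goblet cell markers divided, with 1 of 7 higher and 2 lower on average. Their sum was 118447 to 149372 in untreated CD24lo and 71398 to 93596 in untreated CD24hi. Of 7 T cell markers, with Cd3d below the array median on all sorted arrays, the sum was 273 to 682 in untreated CD24lo and 193 to 612 in untreated CD24hi. All 6 fibroblast markers lay below the array median on the 20 sorted arrays. In such pooled cells, fewer cells of a type and less RNA per cell cannot be told apart. The part of these marker differences in the carrier results below was not tested.

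The promoters of 5 members are shown because these genes are described below and because the letters of a known regulatory motif stand in them. They run from 250 bases before to 50 bases after the start in RefSeq, build GRCm38.p6, written along the gene's strand with the motif in capitals. Slc1a4 (chr11:20332664-20332963, minus strand) holds TGATGNAA, the core of the amino acid response element, on the other strand at position -4, with the start as 1 and the base before it as -1. In Slc3a1 (chr17:85028097-85028396, plus strand) CAAAGTCCA, a motif of HNF4 factors, starts at position -39, and GTTAAT, part of the motif of HNF1 factors, stands on the other strand at position 2. Slc5a4a (chr10:76147201-76147500, plus strand) holds GTTAAT on the other strand at position 12, Slc5a4b (chr10:76110969-76111268, minus strand) TTTATG, a motif of CDX factors, on the other strand at position 31, and Slc6a20a (chr9:123678783-123679082, minus strand) GTTAAT at position -56. Letters found on the other strand appear as their reverse complement.
Slc1a4: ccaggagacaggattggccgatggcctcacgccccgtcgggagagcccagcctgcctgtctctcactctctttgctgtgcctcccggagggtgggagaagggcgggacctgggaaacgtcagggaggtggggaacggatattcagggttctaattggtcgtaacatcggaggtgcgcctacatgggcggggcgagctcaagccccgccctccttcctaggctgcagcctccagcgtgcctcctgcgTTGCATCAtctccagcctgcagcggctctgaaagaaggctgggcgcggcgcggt
Slc3a1: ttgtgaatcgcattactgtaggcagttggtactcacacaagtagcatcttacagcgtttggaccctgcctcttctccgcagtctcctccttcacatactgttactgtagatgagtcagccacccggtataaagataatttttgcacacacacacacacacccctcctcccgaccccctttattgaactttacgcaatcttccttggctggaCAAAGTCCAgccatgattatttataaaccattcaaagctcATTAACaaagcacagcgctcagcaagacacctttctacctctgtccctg
Slc5a4a: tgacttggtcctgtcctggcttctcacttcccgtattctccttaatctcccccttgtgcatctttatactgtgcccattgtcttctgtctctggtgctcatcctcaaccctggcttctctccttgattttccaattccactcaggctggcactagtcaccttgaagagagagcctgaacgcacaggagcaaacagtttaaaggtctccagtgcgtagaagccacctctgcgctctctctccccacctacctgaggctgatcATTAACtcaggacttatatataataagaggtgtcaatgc
Slc5a4b: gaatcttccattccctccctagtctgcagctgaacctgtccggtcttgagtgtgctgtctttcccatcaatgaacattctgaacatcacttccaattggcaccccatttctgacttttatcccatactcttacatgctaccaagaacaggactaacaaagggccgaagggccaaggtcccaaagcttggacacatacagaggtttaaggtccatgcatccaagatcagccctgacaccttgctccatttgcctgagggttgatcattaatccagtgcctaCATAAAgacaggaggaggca
Slc6a20a: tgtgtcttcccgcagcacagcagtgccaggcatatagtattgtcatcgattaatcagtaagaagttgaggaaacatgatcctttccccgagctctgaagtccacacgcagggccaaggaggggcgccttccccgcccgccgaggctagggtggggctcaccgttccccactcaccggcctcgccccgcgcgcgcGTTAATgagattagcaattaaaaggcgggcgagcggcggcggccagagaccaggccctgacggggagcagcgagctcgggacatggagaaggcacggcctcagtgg
Of the 111 members 82 were found in the RefSeq table, with 107 promoters. On either strand TGATGNAA stood in 6 of these promoters and in 3.97% of all 32851 promoters, GTTAAT in 10 and in 7.1%, CAAAGTCCA in 1 and in 0.475%, and TTTATG in 6 and in 11.9%. No motif contains another. None of them stood in the promoters of Slc7a9, Slc2a2, Slc15a1 or Slc27a1, genes with large differences below. A match is a run of letters and not a site shown to be used.

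Between the fractions, the carriers of absorption were lower in CD24hi and several uptake carriers of growing cells were higher. The difference CD24hi minus CD24lo was averaged over the 5 conditions on the scale log2(signal + 16), on which a difference of 1 is a 2-fold change for a bright gene and understates the change of a dim one. With limma's moderated test and Benjamini-Hochberg adjustment over all 11825 genes at 0.05, 22 of 74 members were higher, against a background of 27.4% of genes, and 29 were lower, against 19.2%. The median difference was -0.12 over the members and 0.07 over all genes. Of the 51 members called, 38 had the same sign in all 5 conditions, 18 of them higher and 20 lower. The same conditions make up the average that chose these members, so such agreement is partly built in. Its share over all called genes was not counted. The arrays of the fractions did not overlap for 6 members, and 4.41% of all genes did the same. Scaling to the 75th percentile gave 17 members higher and 32 lower. Over all genes it gave 2686 higher and 2669 lower, where the main fit gave 3243 and 2273.

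**Figure D1:**
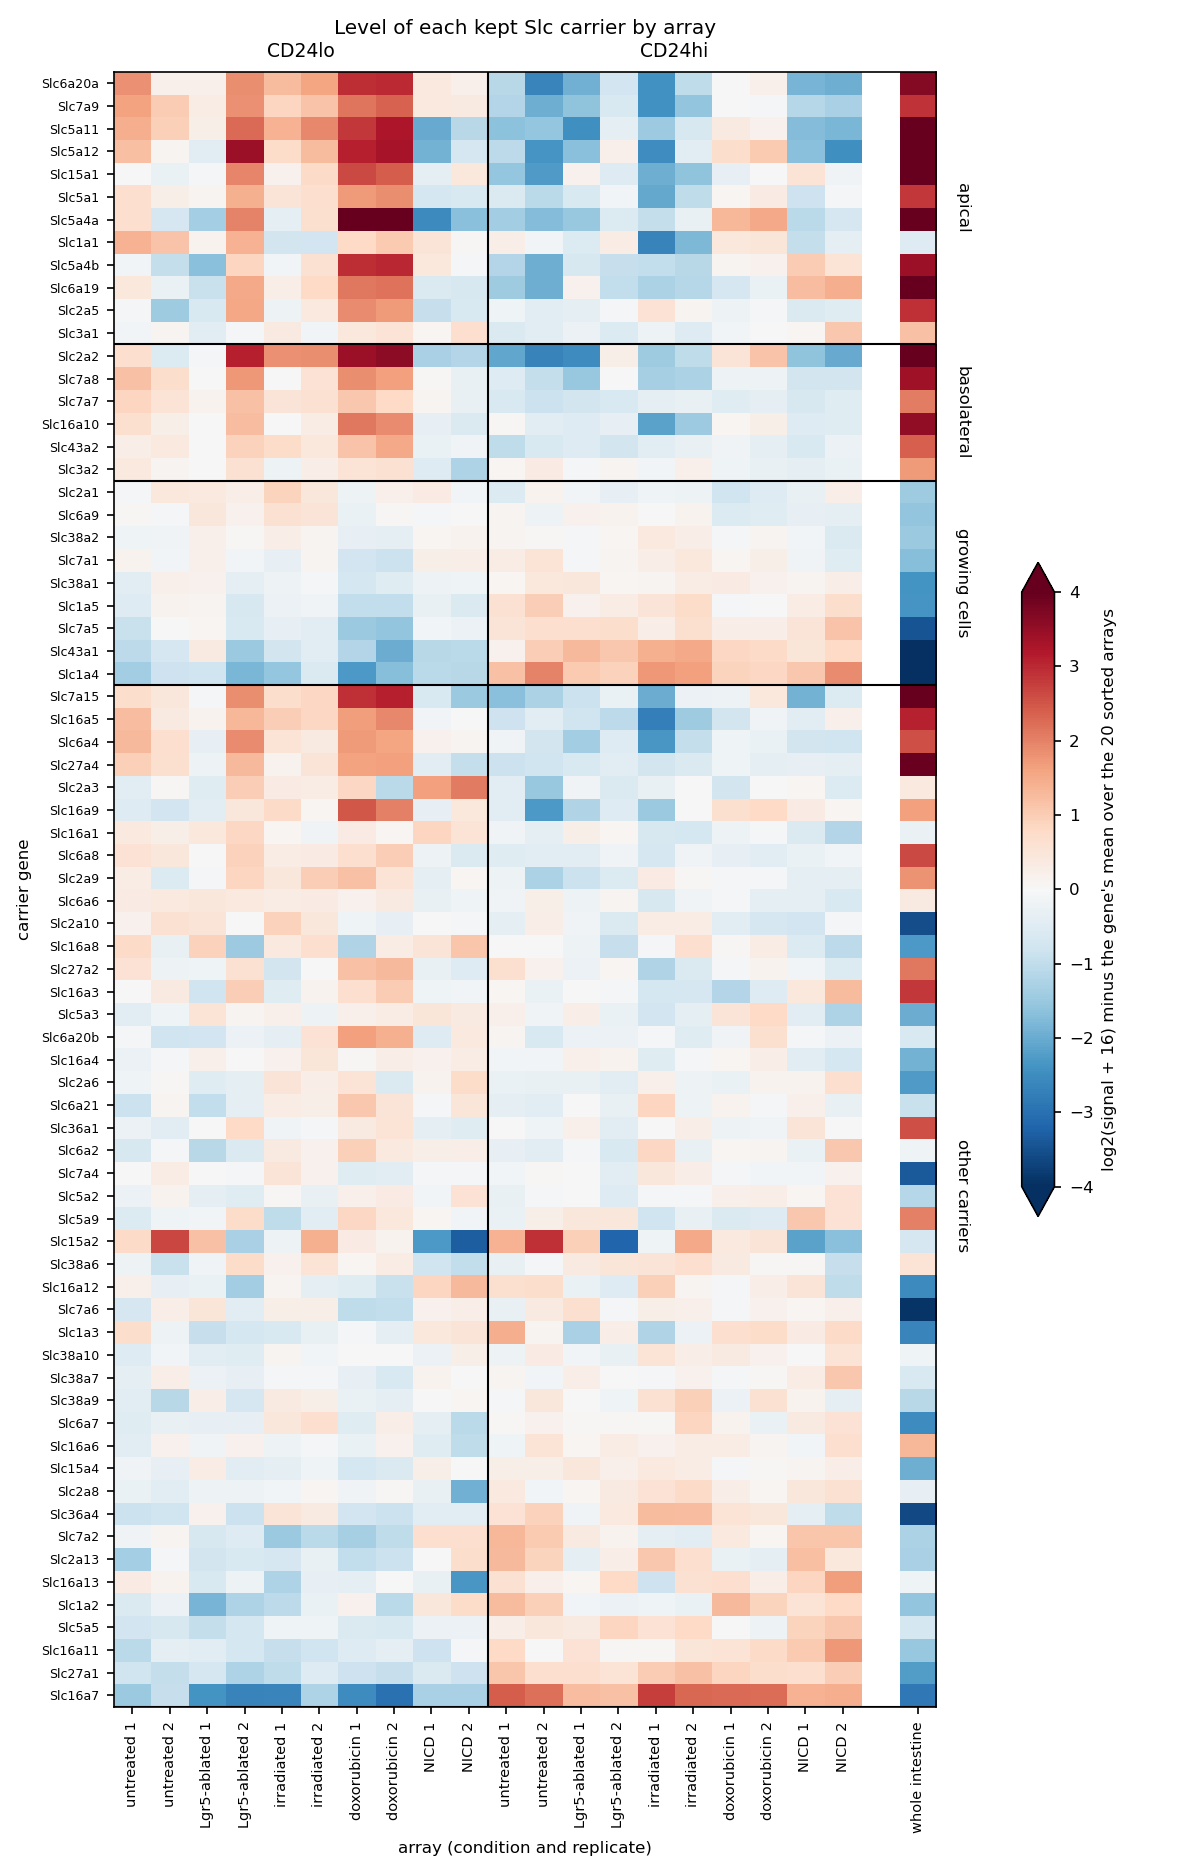
Level of each of the 72 kept carriers (rows) on the 20 sorted arrays and whole intestine (columns), as log2(signal + 16) minus the gene's mean over the 20 sorted arrays, with rows grouped as apical, basolateral, growing-cell and other carriers and the colour scale ending at -4 and 4. The apical and basolateral rows are red in doxorubicin CD24lo and, apart from Slc1a1, in whole intestine, and Slc16a7, Slc1a4 and Slc27a1 are blue in all 10 CD24lo arrays and red in all 10 CD24hi arrays.

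The apical absorptive carriers were the group with the lower level in CD24hi. Of 13 listed, 12 passed the filter (Slc5a8 did not), 10 were lower, none was higher, and the median difference was -1.13. Slc7a9, the light chain of the exchanger for cystine and dibasic amino acids, ran from 10.63 to 12.70 with a median of 11.41 over the 10 CD24lo arrays and from 7.90 to 10.34 with a median of 9.09 over the 10 CD24hi arrays. The fractions did not overlap, and the difference was -2.39 ± 0.19 (SE), adjusted p = 3e-08 by limma. Slc6a20a, the sodium-driven carrier of proline whose promoter is shown above, spanned 10.06 to 12.85 (median 11.30) in CD24lo and 7.23 to 10.07 (median 8.39) in CD24hi, a difference of -2.69 ± 0.27, adjusted p = 4.79e-07. Its fractions met only at the edge, where 1 CD24hi array after doxorubicin reached the lowest CD24lo arrays.

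Sugar and peptide carriers of the apical group followed with smaller or more variable differences. Slc5a1, the sodium-glucose cotransporter of the brush border, ran from 11.05 to 13.63 (median 12.36) in CD24lo and from 9.70 to 12.10 (median 11.16) in CD24hi and differed by -1.19 ± 0.17, adjusted p = 2.36e-05. Slc15a1, the proton-driven carrier of di- and tripeptides, differed by -1.53 ± 0.22, adjusted p = 2.36e-05, with 8.36 to 11.40 (median 9.05) in CD24lo and 6.48 to 9.31 (median 8.33) in CD24hi. In NICD the sign of Slc15a1 was the other way, at 0.19, while the other 4 conditions lay between -2.71 and -1.10. Slc5a11, a carrier of myo-inositol, differed by -2.23 ± 0.27, and Slc5a12, a sodium-coupled carrier of lactate and other monocarboxylates, by -2.03 ± 0.42. Slc1a1, a carrier of glutamate and aspartate, differed by -0.99 ± 0.17 and Slc6a19, the main sodium-driven carrier of neutral amino acids in the brush border, by -0.98 ± 0.24. Slc5a4a and Slc5a4b, neighbouring genes of the sodium-glucose cotransporter family, differed by -1.07 ± 0.33 and -0.99 ± 0.25, adjusted p = 0.014 and 0.0035 by limma. These paralogs are similar, and whether their probe sets part them fully was not tested. Slc3a1, the heavy chain that pairs with Slc7a9, did not pass at -0.30 ± 0.12, adjusted p = 0.0522, nor did the fructose carrier Slc2a5 at -0.33 ± 0.22, adjusted p = 0.234 by limma.

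Carriers of the basolateral side gave the same picture. Of 6 members 5 were lower in CD24hi and none higher, with a median of -1.11. Slc2a2, the facilitative glucose carrier of that membrane, ran from 8.07 to 12.95 (median 10.63) in CD24lo and from 6.69 to 10.51 (median 7.86) in CD24hi, with overlap between the fractions. Its difference was -2.29 ± 0.35, adjusted p = 5.59e-05 by limma. Slc7a7, the light chain of the exchanger that releases cationic amino acids, lay between 10.38 and 11.85 (median 11.27) in CD24lo and between 9.83 and 10.38 (median 10.13) in CD24hi, a difference of -1.11 ± 0.11, adjusted p = 6.34e-07. The neutral amino acid exchanger Slc7a8 differed by -1.49 ± 0.21, the aromatic amino acid carrier Slc16a10 by -1.10 ± 0.14 and Slc43a2, which lets large neutral amino acids out, by -1.0 ± 0.11. Slc3a2, the heavy chain shared by Slc7a7, Slc7a8 and Slc7a5, did not pass at -0.10 ± 0.11, adjusted p = 0.446. Scaling or normalization did not turn the sign of a called member of either group.

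Among the uptake carriers of growing and amino acid starved cells, 10 of 12 passed the filter (Slc7a11 and Slc7a3 did not), 6 were higher in CD24hi and 2 lower, with a median of 0.35. Slc1a4, an exchanger of alanine, serine and cysteine whose promoter with the response element letters is shown above, ran from 8.28 to 10.00 (median 9.33) in CD24lo and from 11.40 to 12.56 (median 11.72) in CD24hi. No CD24hi array reached down to the CD24lo arrays, and the difference was 2.63 ± 0.17, adjusted p = 2.39e-09 by limma. It lay between 2.29 and 2.86 in the 5 conditions, and 2 other probe sets gave 2.63 and 1.50. Slc7a5, the light chain of the exchanger for large neutral amino acids, was also separate, with 7.08 to 8.74 (median 8.28) against 8.94 to 9.81 (median 9.25) and a difference of 1.13 ± 0.13, adjusted p = 2.39e-06. Slc43a1, a facilitative carrier of branched-chain amino acids, was higher by 1.87 ± 0.19, adjusted p = 5.85e-07. The glutamine exchanger Slc1a5 was higher by 0.84 ± 0.11, the glutamine carrier Slc38a1 by 0.46 ± 0.10 and the cationic amino acid carrier Slc7a1 by 0.25 ± 0.08. The members that moved the other way were Slc2a1, the glucose carrier of many dividing cells, at -0.51 ± 0.12, and the glycine carrier Slc6a9 at -0.28 ± 0.08. Slc38a2, a starvation-induced carrier of small neutral amino acids, stood at 0.03 ± 0.07 and did not pass.

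**Figure D2:**
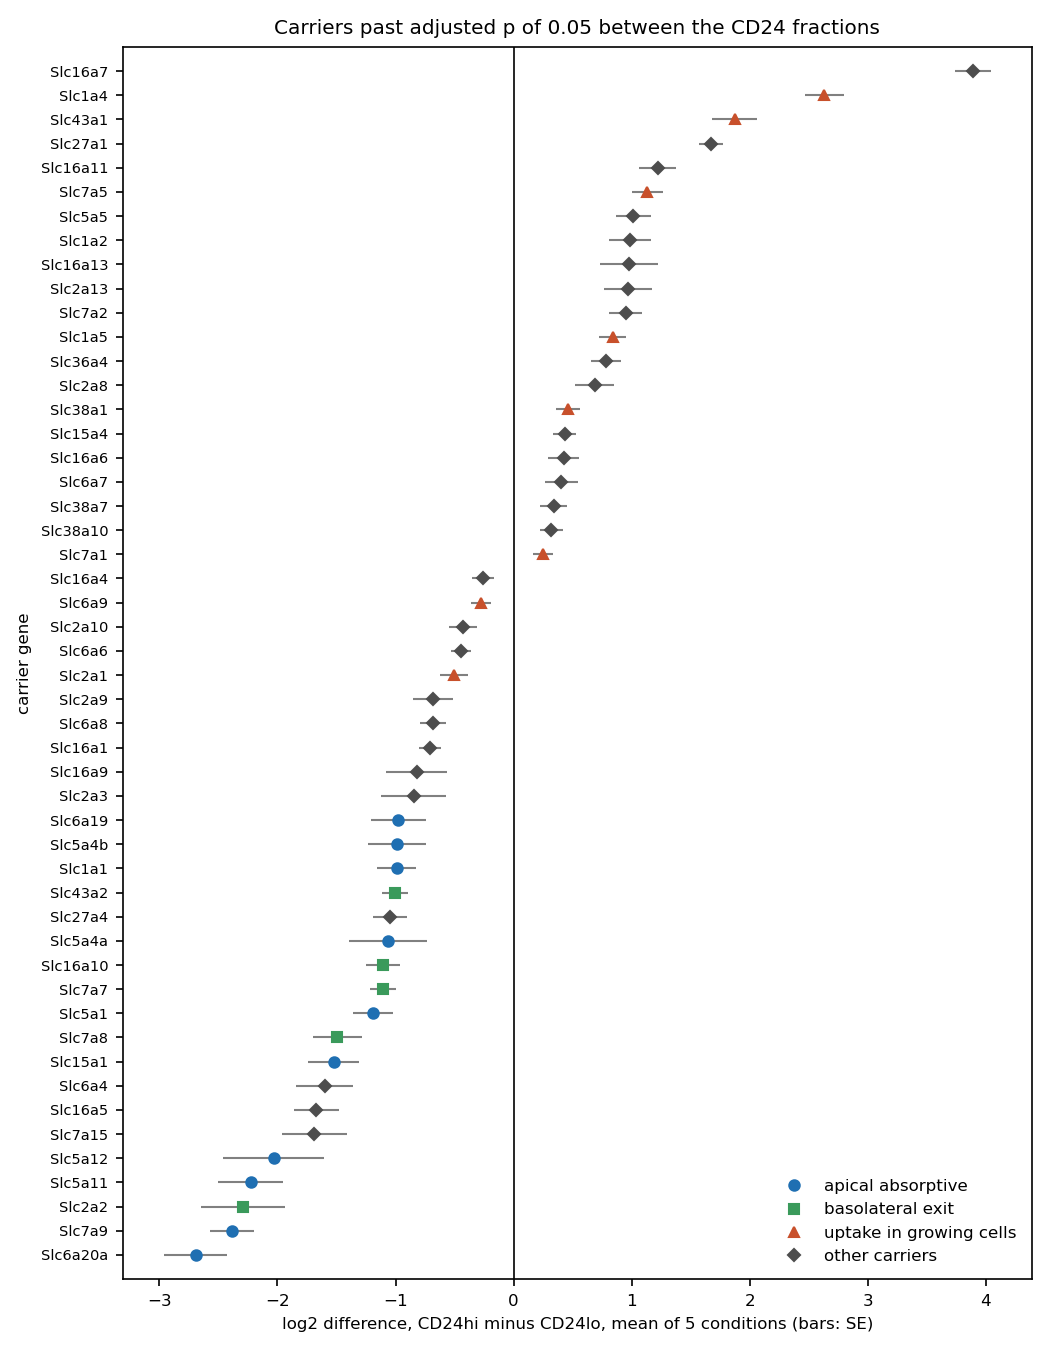
Difference CD24hi minus CD24lo on the log2(signal + 16) scale, averaged over 5 conditions, for the 50 carriers past an adjusted p of 0.05 (points, with bars for the SE and symbols for the group of the carrier). Slc6a20a lies lowest at -2.69 and Slc16a7 highest at 3.89, and all apical and basolateral carriers plotted lie below 0.

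The largest difference of any member belonged to Slc16a7, a high-affinity carrier of pyruvate, lactate and ketone bodies. It ran from 5.44 to 7.50 (median 6.50) in CD24lo and from 9.61 to 11.19 (median 10.65) in CD24hi. The fractions were far apart, by 3.89 ± 0.15, adjusted p = 1.28e-11 by limma, and by 2.72 in NICD up to 5.01 after doxorubicin. Within the 10 monocarboxylate and fatty acid carriers of that list on the array, 8 passed the filter, 3 were higher and 3 lower, with a median of -0.33. Slc27a1, which aids uptake of long-chain fatty acids, was separate as well, at 8.52 to 9.24 (median 8.91) in CD24lo and 10.29 to 10.91 (median 10.53) in CD24hi, a difference of 1.67 ± 0.10, adjusted p = 1.57e-09, and its second probe set gave 1.53. Its family member Slc27a4, the fatty acid carrier of enterocytes, differed the other way by -1.05 ± 0.15, adjusted p = 2.13e-05. Slc16a1, the widely expressed lactate carrier, differed by -0.71 ± 0.09 and Slc16a9 by -0.82 ± 0.26. Slc16a11, a member of the monocarboxylate family outside the list, was the sixth member with separate fractions, at 6.94 to 7.96 (median 7.40) against 8.03 to 9.74 (median 8.59), a difference of 1.22 ± 0.16, adjusted p = 7.69e-06. Slc16a13, its neighbour by family, was higher by 0.98 ± 0.25, and Slc16a5 was lower, at -1.67 ± 0.19.

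Lysosomal and vesicular amino acid carriers were higher in CD24hi in 3 of 5 tested (Slc15a3 did not pass the filter), with a median of 0.37. Slc36a4 was higher by 0.78 ± 0.13 and Slc15a4, a histidine and peptide carrier of endosomes, by 0.43 ± 0.10, adjusted p = 0.0015 by limma. With the mean of its probe sets Slc15a4 stood at 0.16, adjusted p = 0.266. Slc38a7, a lysosomal glutamine carrier, was higher by 0.34 ± 0.12. Of 10 carriers best known from nerve and endocrine cells 4 were kept, and they divided. Slc6a4, the serotonin carrier, which enterocytes also use, ran from 8.06 to 10.29 (median 9.0) in CD24lo and from 6.05 to 8.24 (median 7.66) in CD24hi, a difference of -1.60 ± 0.24, adjusted p = 4.06e-05. Slc1a2, a glutamate carrier of glia, was higher in CD24hi by 0.99 ± 0.18, adjusted p = 0.000226.

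Further called members lay outside these lists. Slc7a15 differed by -1.69 ± 0.28, the creatine carrier Slc6a8 by -0.69 ± 0.11, the urate carrier Slc2a9 by -0.68 ± 0.17, the taurine carrier Slc6a6 by -0.44 ± 0.08 and Slc2a10 by -0.43 ± 0.12. Higher in CD24hi were the iodide carrier Slc5a5 by 1.01 ± 0.15, the myo-inositol carrier Slc2a13 by 0.97 ± 0.20, the cationic amino acid carrier Slc7a2 by 0.95 ± 0.14 and the intracellular glucose carrier Slc2a8 by 0.69 ± 0.17. Slc5a5 and Slc2a13 lay below the array median on every CD24lo array. They passed the filter only through 2 and 4 CD24hi arrays, so the filter favoured a call in this direction. Slc2a3, at -0.85 ± 0.28, lay below the array median on every CD24hi array. It passed the filter only through 3 CD24lo arrays, which favoured a call in the lower direction. Without each of the 20 arrays in turn the count of called members lay between 48 and 56, and 45 of the 51 kept their call throughout. The call was lost without at least 1 array for Slc16a4 (adjusted p up to 0.0746), Slc2a3 (0.0519), Slc38a7 (0.0629), Slc6a7 (0.0662), Slc7a1 (0.0599 without irradiated CD24lo replicate 1) and the non-carrier symbol Slc7a6os (0.0995). Slc2a3 lost it without Lgr5-ablated CD24lo replicate 2 alone. Leaving out the NICD groups, an alternative chosen after seeing the data, kept 46 of the 51 calls.

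Enzymes and helpers of absorption lay on the same side as the apical carriers. Of 10 brush border peptidases and disaccharidases on the array all 10 were lower in CD24hi, with a median of -1.50, and of 12 tested genes of fat handling inside enterocytes all 12 were lower, with a median of -1.39. Of 17 amino acid response genes 11 were higher and 3 lower, with a median of 0.49. Among 5 tested partners and sorting proteins of carriers, Slc9a3r1 and Pdzk1, scaffolds of the brush border, were lower and none was higher.

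In untreated mice alone, with 2 arrays against 2, 12 members were higher in CD24hi, against 7.51% of genes, and 15 were lower, against 6.88%. All 27 were also called with the same sign in the average, which contains these arrays. Apical carriers were lower in 7 of 12 with a median of -1.67, basolateral carriers in 4 of 6 with -1.30, and uptake carriers of growing cells were higher in 4 of 10 with 0.38. The count fell to 8 without untreated CD24lo replicate 1, to 12 without CD24hi replicate 1 and to 12 without CD24hi replicate 2, and was 21 without CD24lo replicate 2. The call stood without any single array for 7 members, Slc16a7, Slc1a4, Slc27a1, Slc27a4, Slc36a4, Slc7a7 and Slc7a9. Slc16a7 stood at 6.95 and 7.50 in CD24lo and 10.84 and 10.62 in CD24hi, a difference of 3.51 ± 0.34, adjusted p = 5.8e-06 by limma. Slc36a4, an amino acid carrier of inner membranes, stood at 8.79 and 8.87 in CD24lo and 10.21 and 10.58 in CD24hi, a difference of 1.57 ± 0.29, adjusted p = 0.00143. Slc27a4 stood at 10.48 and 10.17 in CD24lo and 8.66 and 8.74 in CD24hi, a difference of -1.63 ± 0.33, adjusted p = 0.00309. Both arrays of a fraction lay close together for these 3 genes, well apart from the other fraction. Among all genes 53.9% had no overlap between the untreated fractions.

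The 8 comparisons of a treatment with untreated cells share the untreated arrays of their fraction. Across them 31 members were called at least once, and the matching share over all genes was not counted.

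After Lgr5 ablation no member passed in either fraction, where limma called 0.237% of genes in CD24lo and 0.812% in CD24hi. At an unadjusted p under 0.05 there were 8 of 74 members and 881 of 11825 genes in CD24lo. In CD24hi there were 11 members and 1130 genes. The lowest adjusted p of a member was 0.189 in CD24lo and 0.129 in CD24hi. The 2 Lgr5-ablated CD24lo arrays differed from each other in carriers of absorption. Slc2a2 stood at 9.34 and 12.49, Slc15a1 at 8.68 and 10.70, and Slc5a12 at 6.44 and 10.27 in replicates 1 and 2, so that replicate 2 was the higher in each. The summed enterocyte markers of these arrays ran from 40037 to 71973, and their part in these levels was not tested. In Lgr5-ablated CD24hi the order was the same for Slc2a2, at 6.84 and 9.61, and Slc5a12, at 5.21 and 7.06, and the opposite for Slc15a1, at 8.93 and 8.24. Without Lgr5-ablated CD24lo replicate 1 limma called 2 members in CD24lo, and without Lgr5-ablated CD24hi replicate 1 it called 1 in CD24hi. For the difference between the fractions in this response no member passed, and 0.0169% of genes were called. An unadjusted p under 0.05 held for 1 of 74 members and 527 of 11825 genes.

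After irradiation Slc1a1, the glutamate and aspartate carrier, was lower in both fractions. In CD24lo it stood at 11.29 and 11.04 in untreated and 9.18 and 9.13 in irradiated cells, a difference of -2.01 ± 0.37, adjusted p = 0.00586 by limma. In CD24hi the values were 10.16 and 9.80 in untreated and 7.23 and 8.12 in irradiated cells, a difference of -2.31 ± 0.37, adjusted p = 0.00122. No irradiated array reached an untreated one of its fraction, and 51.7% of all genes in CD24lo and 47.9% in CD24hi likewise had no overlap. Irradiated cells held the lowest mean of Slc1a1 among the 5 conditions in each fraction. Its other 2 probe sets gave -1.96 and -1.85 in CD24lo and -2.38 and -2.42 in CD24hi. The CD24hi call stood without any single array, and the CD24lo call was lost without irradiated CD24lo replicate 1, at 0.0553.

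Beyond Slc1a1 few members passed after irradiation. In CD24lo 1 member was higher, against 1.57% of genes, and 2 were lower, against 2.45%. In CD24hi none was higher, against 1.11%, and 4 were lower, against 3.33%. Slc7a2, a cationic amino acid carrier, was lower in both, from 6.59 and 6.82 to 5.24 and 5.66 in CD24lo and from 8.04 and 7.76 to 6.35 and 6.29 in CD24hi, differences of -1.26 ± 0.31 and -1.58 ± 0.31, adjusted p = 0.0309 and 0.00509 by limma. Its CD24lo values in both groups lay below the lowest array median of 6.87, where a dim gene is read with less certainty. Its second probe set gave -0.44 and -1.31, with adjusted p = 0.539 and 0.0593. Slc36a4 was higher in CD24lo, from 8.79 and 8.87 to 10.18 and 10.00, by 1.26 ± 0.29, adjusted p = 0.0195. In CD24hi the carriers Slc16a10 and Slc27a2 (a very long-chain fatty acid carrier) were lower, at -1.60 ± 0.32 and -1.30 ± 0.31, adjusted p = 0.00543 and 0.0218, and the second probe set of Slc16a10 gave -1.14, adjusted p = 0.069. In CD24lo the count was 1 without either untreated array, 0 without irradiated replicate 1 and 2 without irradiated replicate 2, and in CD24hi it was 1 without untreated replicate 1 or irradiated replicate 1 and 5 without the other array of either group. Slc7a2 in CD24lo lost its call without any 1 of the 4 arrays (up to 0.267), as did Slc36a4 (up to 0.174), and Slc16a10, Slc27a2 and Slc7a2 in CD24hi lost it without untreated replicate 1 (0.0987, 0.215 and 0.0841) or irradiated replicate 1 (0.139, 0.345 and 0.0546). For the difference between the fractions no member passed, and 0.00846% of genes were called. An unadjusted p under 0.05 held for 4 of 74 members and 426 of 11825 genes. The difference between the fractions was -0.30 for Slc1a1, with a 95% interval from -1.46 to 0.87. Stem cell markers moved with these results, with sums of 7219 to 8793 in irradiated CD24lo, where 4 of 7 were lower, and 17991 to 18819 in irradiated CD24hi, where 3 of 7 were lower. No enterocyte marker passed in either fraction, while 1 of 9 enteroendocrine markers in CD24lo and 2 of 7 goblet cell markers in CD24hi were higher. The part of these markers in the carrier results was not tested.

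**Figure D3:**
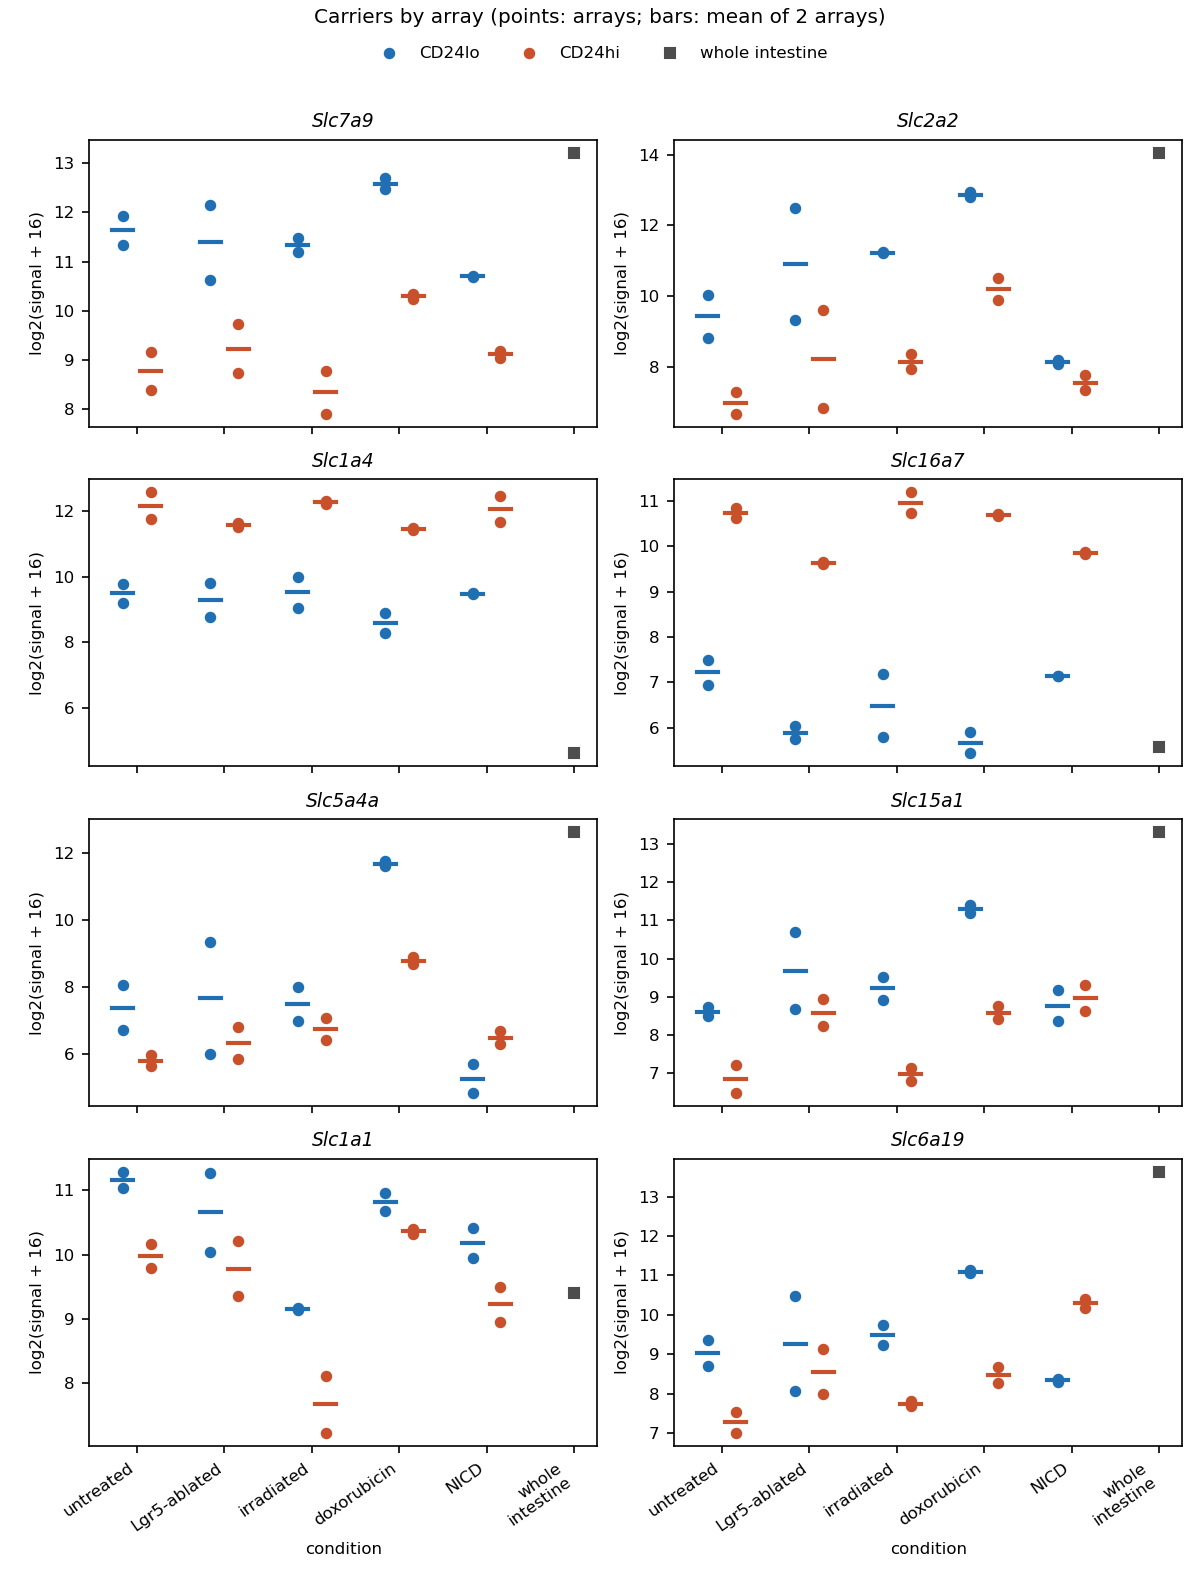
Level of 8 carriers on the log2(signal + 16) scale by condition, with a point for each array, a bar for the mean of 2 arrays, colours for the CD24 fraction and a square for whole intestine. Slc1a1 is lowest in irradiated cells of each fraction, Slc5a4a and Slc2a2 are highest among the sorted cells in doxorubicin CD24lo, and Slc6a19 in NICD lies higher in CD24hi than in CD24lo.

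After doxorubicin, carriers of sugar, peptide and amino acid absorption were higher in CD24lo cells. There 14 members were higher, against 5.47% of genes, and 6 were lower, against 9.3%, and the median difference was 0.29 over the members and -0.06 over all genes. Of 12 apical carriers 7 were higher and none lower, with a median of 2.00. Slc5a4a, one of the cotransporter genes with its promoter shown above, stood at 8.05 and 6.70 in untreated and 11.62 and 11.76 in doxorubicin-treated cells, a difference of 4.31 ± 0.74, adjusted p = 0.00227 by limma. Its neighbour Slc5a4b stood at 7.53 and 6.69 against 10.60 and 10.65, a difference of 3.52 ± 0.55, adjusted p = 0.00133. The peptide carrier Slc15a1 stood at 8.72 and 8.50 against 11.40 and 11.19, a difference of 2.68 ± 0.48, adjusted p = 0.00304. Between these groups the arrays of 61.4% of all genes did not overlap. In all 3 genes both treated arrays lay close together and above both untreated arrays, and of the 20 calls these 3 stood without any single array.

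The rest of the absorptive set followed with calls that rested on single arrays. Slc2a5, the apical fructose carrier, stood at 8.98 and 7.64 against 10.97 and 10.76, a difference of 2.55 ± 0.49, adjusted p = 0.0043, and 0.068 without untreated CD24lo replicate 2. Slc6a19 differed by 2.06 ± 0.53, Slc6a20a by 1.95 ± 0.60 and Slc5a1 by 1.34 ± 0.38, and each lost the call without untreated CD24lo replicate 2 (adjusted p = 0.138, 0.343 and 0.183), doxorubicin CD24lo replicate 1 (0.0902, 0.159 and 0.109) or doxorubicin CD24lo replicate 2 (0.0883, 0.137 and 0.128). Slc5a12 at 2.56 ± 0.95, Slc5a11 at 1.85 ± 0.61, Slc7a9 at 0.95 ± 0.42, Slc3a1 at 0.50 ± 0.27 and Slc1a1 at -0.34 ± 0.37 did not pass. Of 6 basolateral carriers 3 were higher and none lower, with a median of 0.91. Slc2a2 stood at 10.04 and 8.83 in untreated and 12.79 and 12.95 in treated cells, a difference of 3.43 ± 0.79, adjusted p = 0.0102, which lost the call without untreated CD24lo replicate 2 (0.106) or either treated array (0.0665 and 0.0674). Slc16a10 was higher by 1.56 ± 0.32, adjusted p = 0.00548, with 0.0657 without untreated CD24lo replicate 2 and 0.0591 without doxorubicin CD24lo replicate 1. Slc43a2 was higher by 1.0 ± 0.25, adjusted p = 0.0147, with 0.063 and 0.0674 without untreated CD24lo replicates 1 and 2 and 0.127 without doxorubicin CD24lo replicate 2.

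Uptake carriers of growing cells went the other way after doxorubicin in CD24lo, with 3 of 10 lower, none higher and a median of -0.59. Slc7a5 stood at 7.80 and 8.66 in untreated and 7.18 and 7.08 in treated cells, a difference of -1.10 ± 0.29, adjusted p = 0.0195 by limma. Slc7a1 stood at 11.59 and 11.35 against 10.69 and 10.59, a difference of -0.83 ± 0.19, adjusted p = 0.00871, and its other 2 probe sets gave -1.30 and -1.03. Slc1a5 differed by -0.79 ± 0.25, adjusted p = 0.0471. Slc1a4, at -0.90 ± 0.37, and Slc43a1, at -0.71 ± 0.42, did not pass. Among the remaining members Slc16a7, high in the other fraction, stood at 6.95 and 7.50 against 5.91 and 5.44, a difference of -1.55 ± 0.34, adjusted p = 0.00808. Slc7a5 and Slc1a5 lost the call without untreated CD24lo replicate 2 (0.238 and 0.373), doxorubicin CD24lo replicate 1 (0.0902 and 0.181) or replicate 2 (0.102 and 0.151). Slc7a1 lost it without untreated CD24lo replicate 1 (0.0542) or either treated array (0.0541 and 0.0698), and Slc16a7 without untreated CD24lo replicate 2 (0.0933) or doxorubicin CD24lo replicate 2 (0.0789). Slc1a5 also lost its call under several other settings, quantile normalization among them.

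Of the other members called after doxorubicin in CD24lo, Slc16a9 was higher by 2.89 ± 0.58, Slc7a15 by 2.43 ± 0.62, Slc6a20b by 1.98 ± 0.44 and Slc27a2 by 1.04 ± 0.31, and Slc7a2 was lower at -1.17 ± 0.31 and Slc7a4 at -0.59 ± 0.19. Without untreated CD24lo replicate 2 the adjusted p was 0.105 for Slc7a15, 0.0962 for Slc6a20b, 0.314 for Slc27a2, 0.136 for Slc7a2 and 0.306 for Slc7a4, and without doxorubicin CD24lo replicate 1 it was 0.0607 for Slc16a9. A second probe set of Slc7a2 gave -0.58, adjusted p = 0.304 by limma. The group means of Slc7a2 were 5.54 in treated and 6.70 in untreated CD24lo, both below the lowest array median of 6.87. Leaving out untreated CD24lo replicate 1 gave 21 called members and leaving out replicate 2 gave 5, while leaving out doxorubicin CD24lo replicates 1 and 2 gave 6 and 7. Marker sums moved with these differences. The enterocyte sum was 105212 to 119632 in treated CD24lo, where 2 of 8 markers were higher, the stem cell sum 5228 to 5658, where 5 of 7 were lower, and the T cell sum 2978 to 3075, where 4 of 6 tested were higher. The Paneth cell sum was 41808 to 47071, with 3 of 5 lower, and the myeloid sum 2105 to 3275 against 6096 to 7597 in untreated CD24lo, with 3 of 4 tested lower. Lower too were 1 of 9 enteroendocrine markers and 1 of the 2 genes of the reporter and the sort. Of 10 brush border enzymes 5 were higher, with a median of 1.42, and of 17 amino acid response genes 2 were higher and 5 lower.

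In CD24hi cells no member passed after doxorubicin, where limma called 1.19% of genes. An unadjusted p under 0.05 held for 18 of 74 members and 1388 of 11825 genes. All 12 apical carriers had positive differences there, with a median of 1.61 against -0.003 over all genes. Slc2a2 stood at 7.30 and 6.69 in untreated and 9.90 and 10.51 in treated cells, a difference of 3.21 ± 0.79, adjusted p = 0.063 by limma. Slc5a4a stood at 5.98 and 5.62 against 8.69 and 8.88, a difference of 2.99 ± 0.74, adjusted p = 0.0635. For both genes the treated arrays lay above the untreated ones without overlap, and the arrays of 51.2% of all genes did not overlap either. Fitted to these 2 groups alone, 9 members were higher and 2 lower, while the calls over all 11825 genes rose from 141 to 406. The enterocyte sum was 45905 to 47047 in treated CD24hi, and 3 of 8 markers were higher, as were 2 of 7 goblet cell markers, while 1 of 7 stem cell and 1 of 9 enteroendocrine markers were lower.

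The difference between the fractions in the doxorubicin response passed for no member, and 0.0338% of genes were called. An unadjusted p under 0.05 held for 10 of 74 members and 1252 of 11825 genes. For Slc2a2 the difference was -0.22, with a 95% interval from -2.72 to 2.28. For Slc5a4a it was -1.33, from -3.66 to 1.0, and both intervals include 0. Slc2a5 gave -2.38 ± 0.70, adjusted p = 0.229, with 8.90 and 8.66 in untreated and 8.86 and 9.03 in treated CD24hi cells. Slc16a7 gave 1.50 ± 0.48, adjusted p = 0.273.

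**Figure D4:**
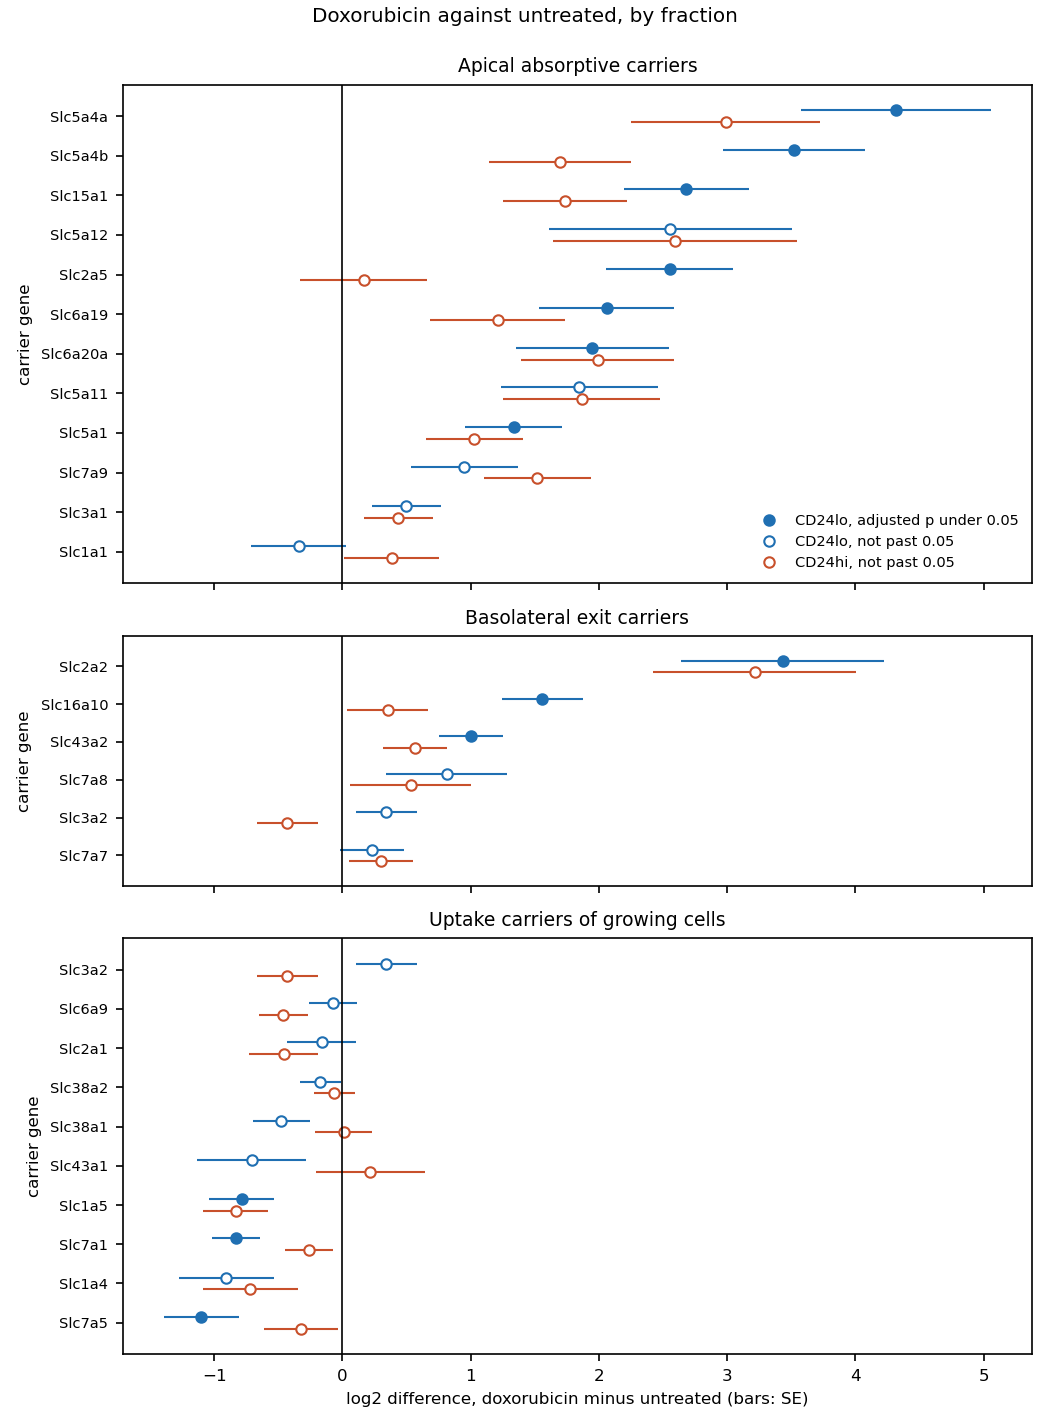
Difference doxorubicin minus untreated on the log2(signal + 16) scale for apical, basolateral and growing-cell carriers in CD24lo and CD24hi (points, with bars for the SE, filled where the adjusted p is under 0.05). Slc5a4a lies highest in CD24lo at 4.31 and Slc2a2 highest in CD24hi at 3.21, and the growing-cell carriers called in CD24lo lie between -1.10 and -0.79.

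In NICD mice Slc15a2, a proton-driven carrier of di- and tripeptides, was lower in both fractions. In CD24lo it stood at 8.27 and 10.16 in untreated and 5.20 and 4.19 in NICD cells, a difference of -4.52 ± 1.06, adjusted p = 0.0167 by limma. In CD24hi it stood at 8.89 and 10.43 against 5.36 and 5.83, a difference of -4.07 ± 1.06, adjusted p = 0.0305. The NICD arrays lay below the untreated ones in both, and 62.5% of all genes in CD24lo and 48.6% in CD24hi had no overlap. Slc15a2 also spread widely within other groups, as in Lgr5-ablated CD24hi at 8.46 and 4.33. The CD24lo call was lost without untreated CD24lo replicate 2 (0.102) or NICD CD24lo replicate 2 (0.242). The CD24hi call was lost without any 1 of its 4 arrays (0.0569 to 0.21).

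In NICD CD24lo cells 7 members were lower, against 7.72% of genes, and 1 was higher, against 6.63%. Quantile normalization gave 8 members lower and 0 higher, and over all genes 925 lower and 689 higher. Slc5a11 stood at 8.71 and 8.21 in untreated and 5.25 and 6.15 in NICD cells, a difference of -2.76 ± 0.61, adjusted p = 0.0139 by limma. Slc27a4 stood at 10.48 and 10.17 against 9.09 and 8.57, a difference of -1.50 ± 0.33, adjusted p = 0.0131. Slc3a2, the shared heavy chain, stood at 11.96 and 11.69 against 11.06 and 10.34, a difference of -1.13 ± 0.24, adjusted p = 0.0115. Slc6a8 at -0.89 ± 0.25, Slc7a7 at -0.81 ± 0.25 and Slc6a6 at -0.60 ± 0.19 were lower too, and the glucose carrier Slc2a3, at 5.62 and 6.09 against 7.66 and 8.10, was higher by 2.03 ± 0.62, adjusted p = 0.0399. Without NICD CD24lo replicate 2 none of these calls stood, with 12 members at an unadjusted p under 0.05, while leaving out untreated CD24lo replicates 1 and 2 in turn gave counts of 1 and 3, and leaving out NICD CD24lo replicate 1 gave 7. The adjusted p without NICD CD24lo replicate 2 ran from 0.14 for Slc5a11 to 0.379 for Slc7a7. Without untreated CD24lo replicate 1 it ran from 0.0623 for Slc3a2 to 0.178 for Slc7a7, with Slc15a2 alone still called, and Slc6a8, Slc7a7, Slc6a6 and Slc2a3 lost the call without untreated CD24lo replicate 2 too (0.0788, 0.0782, 0.15 and 0.0922). With the mean of its probe sets Slc6a6 stood at -0.28, adjusted p = 0.196. Slc2a3 passed the filter on 3 arrays alone, both of NICD CD24lo and 1 of Lgr5-ablated CD24lo, so the filter favoured a call in this direction. It was read through an s probe set, a type that may match transcripts of other genes. Without s and x probe sets Slc2a3 was not tested. The enterocyte sum was 32733 to 35516 in NICD CD24lo, with 4 of 8 markers lower, and 4 of 10 brush border enzymes were lower. The T cell sum was 1522 to 1726 against 273 to 682 in untreated CD24lo, with 3 of 6 tested higher, and the enteroendocrine sum 26791 to 27076 against 10653 to 14640, with 3 of 9 higher. The goblet cell sum was 86687 to 93364 against 118447 to 149372, with 3 of 7 lower, and 1 of 5 Paneth cell markers was lower and 1 of 7 stem cell markers higher.

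In NICD CD24hi cells 4 members were higher, against 4.61% of genes, and 3 were lower, against 1.84%. The higher ones were all apical. Slc6a19 stood at 7.53 and 7.0 in untreated and 10.18 and 10.41 in NICD cells, a difference of 3.03 ± 0.53, adjusted p = 0.00236 by limma, and its second probe set gave 2.06, adjusted p = 0.00921. It was the member whose call stood without any single array. Slc5a4b stood at 6.47 and 5.70 against 8.67 and 8.19, a difference of 2.35 ± 0.55, adjusted p = 0.0174, and Slc15a1 at 7.22 and 6.48 against 9.31 and 8.62, a difference of 2.11 ± 0.48, adjusted p = 0.0148. Slc3a1, whose promoter is shown above, stood at 10.89 and 11.02 against 11.55 and 12.53, a difference of 1.08 ± 0.27, adjusted p = 0.0241. The lower ones beside Slc15a2 were Slc36a4, at -1.43 ± 0.29, adjusted p = 0.00607, and Slc7a1, at -0.71 ± 0.19, adjusted p = 0.0305, although the other 2 probe sets of Slc7a1 gave 0.23 and -0.36. Slc15a1 lost the call without untreated CD24hi replicate 2 (0.15), as did Slc5a4b (0.157), Slc36a4 (0.0838), Slc3a1 (0.105) and Slc7a1 (0.208). Without NICD CD24hi replicate 2, the array that stood apart, the values were 0.0766 for Slc5a4b, 0.118 for Slc36a4, 0.383 for Slc3a1 and 0.299 for Slc7a1, and without untreated CD24hi replicate 1 they were 0.125 for Slc3a1 and 0.0595 for Slc7a1. Leaving out untreated CD24hi replicates 1 and 2 in turn gave counts of 5 and 1, and leaving out NICD CD24hi replicates 1 and 2 gave 14 and 2. Enteroendocrine markers summed to 65368 to 98670 in NICD CD24hi against 12047 to 13401 in untreated CD24hi, with 9 of 9 higher, and tuft cell markers to 8552 to 10559 against 962 to 1563, with 4 of 4 higher. The enterocyte sum was 30464 to 41334, with 2 of 8 higher, and 1 of 7 stem cell markers and 1 of 4 B and plasma cell markers tested were higher.

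The response to NICD differed between the fractions for 4 members in the test of that difference, CD24hi effect minus CD24lo effect. It was higher for 2, against 1.62% of genes, and lower for 2, against 0.989%. Slc6a19 gave 3.73 ± 0.74, adjusted p = 0.0321 by limma, made of 3.03 in CD24hi and -0.70 in CD24lo. Slc27a4 gave 1.97 ± 0.47, adjusted p = 0.0411, made of 0.48 and -1.50. Slc36a4 gave -1.84 ± 0.40, adjusted p = 0.038, made of -1.43 and 0.41. Slc5a3, a myo-inositol carrier, gave -1.61 ± 0.41, adjusted p = 0.0489, made of -0.87 and 0.74. Over the 12 apical carriers the median of this difference was 1.53, with 11 positive, against 0.03 over all genes. None of the 4 calls stood in every fit that left out an array. Without any of the untreated arrays, NICD CD24lo replicate 2 or NICD CD24hi replicate 2 the count of members called was 0, with 16 to 21 at an unadjusted p under 0.05, and without NICD CD24lo replicate 1 and NICD CD24hi replicate 1 it was 5 and 15. Other probe sets of Slc6a19 and Slc5a3 gave 2.12 and -1.08, adjusted p = 0.0651 and 0.209.

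**Figure D5:**
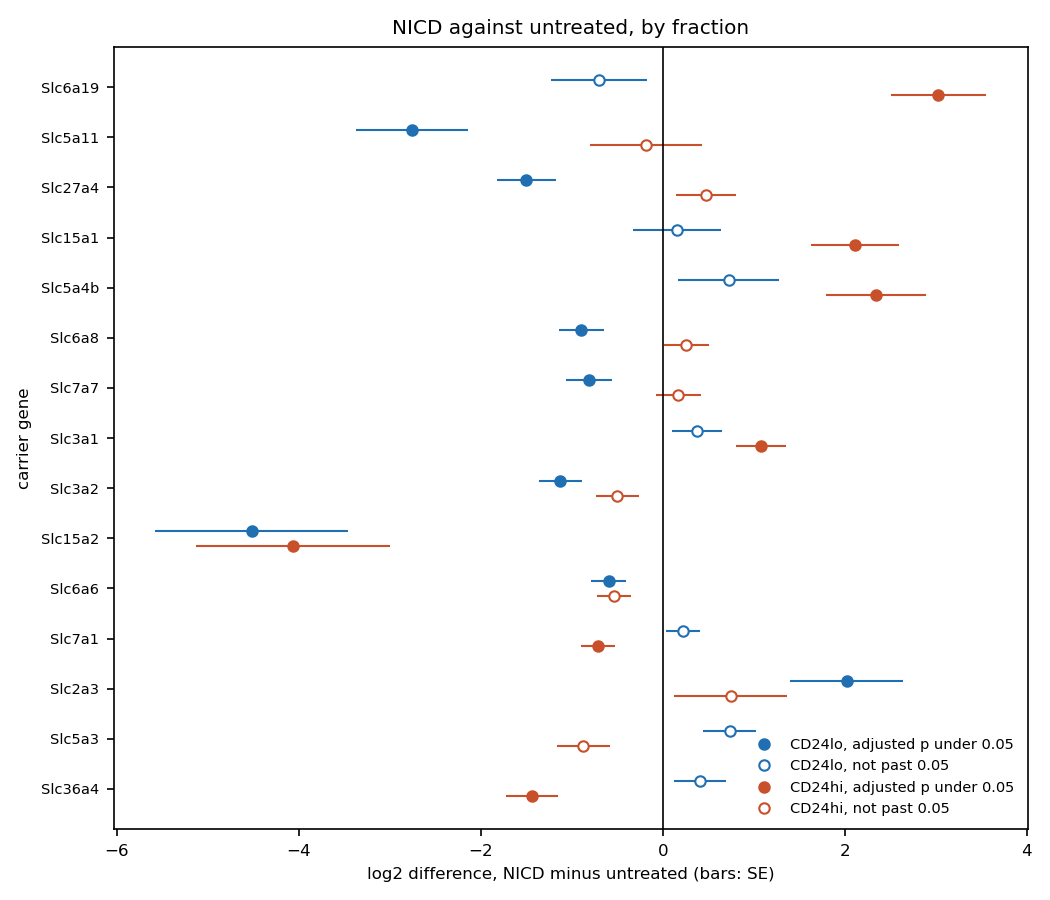
Difference NICD minus untreated on the log2(signal + 16) scale in CD24lo and CD24hi for the 15 members called in an NICD comparison (points, with bars for the SE, filled where the adjusted p is under 0.05), ordered by the difference between the fractions. Slc6a19 is at the top with 3.03 in CD24hi and -0.70 in CD24lo, and Slc15a2 is lower in both fractions, at -4.07 and -4.52.

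Whole intestine, the single unsorted array, was set beside the sorted arrays with no test. It lay above all 20 sorted arrays for 28 of the 74 kept members, as for 18.6% of all genes, and below all 20 for 25, as for 39.5% of all genes. All 6 basolateral carriers and 11 of 12 apical carriers lay above, and 9 of 10 uptake carriers of growing cells lay below, with Slc3a2 above. Slc2a2 stood at 14.06, Slc5a1 at 14.60 and Slc15a1 at 13.31 in whole intestine, each above its highest sorted array. Slc1a4 stood at 4.62 and Slc7a5 at 5.21, each below its lowest. Slc1a1 was the apical carrier within the sorted range, at 9.40. The enterocyte sum was 202991 there.

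Members that were called nowhere, and those below the filter, complete the set. Of the 74 kept members 15 passed in none of the 14 comparisons, among them Slc38a2, Slc38a9, the sodium-glucose carriers Slc5a2 and Slc5a9, Slc16a3, Slc1a3, Slc36a1 and Slc7a6. The share of all genes that passed in none was not counted. Slc5a2, known from the kidney, stood between 12.02 and 13.12 on all 20 sorted arrays, with an average fraction difference of 0.04 ± 0.11 and a 95% interval of -0.20 to 0.27. This reading came from an s probe set, the brighter of 2 for the gene. Whether it reads Slc5a2 or transcripts of other genes was not tested. The 37 members not kept had means of 4.38 to 6.62 on the log2(signal + 16) scale and lay above the array median on at most 1 sorted array. Of these, Slc5a8, a sodium-coupled carrier of short-chain fatty acids, stood at 8.49 in whole intestine, 2.89 above its highest sorted array.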

How the data were processed

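The authors' deposited value table gave a linear signal intensity for each of 45101 probe sets, made with MAS5 per the submitters' processing notes (its version is not given in the sources used here). Its trimmed mean was 500 on every array, and it was used without detection calls. Platform annotation gave 34958 probe sets 1 symbol, 932 several and 9211 none. No pair of the 21 arrays was identical.

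Values were taken as log2(signal + 16), 1 probe set a gene, and fitted with limma 3.58.1 in R 4.3.3 over the 10 sorted groups (10 residual degrees of freedom, eBayes with trend), in 14 comparisons. Tests were two-sided, with Benjamini-Hochberg adjustment over 11825 genes at 0.05. The fit was tested on simulated data with 200 changed genes. Members and lists were chosen with earlier results of these data known. The text names members past the threshold, up to 12 a comparison by size, the members of the apical, basolateral and growing-cell lists, and up to 4 of other lists. Pairing by replicate number was not used: the labels state none, and deviations of same-numbered arrays correlated from -0.414 to 0.385 over 45 pairs of groups.

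Alternatives were pseudocounts of 1 and 64, centring on the 75th percentile, quantile normalization, no filter and a stricter one (above the 60th percentile on 4 arrays), the mean of probe sets, no s or x probe sets, eBayes without trend or robust, a replicate block, groups fitted alone, and each array left out. A lone array left in a group was taken to vary as the rest do. The average without NICD was added after seeing the data.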

Additional observations from a re-analysis of the deposited data

Results flagged for a closer look

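For 4 members the response to NICD differed between the fractions in the test of that difference (CD24hi effect minus CD24lo effect, limma with Benjamini-Hochberg adjustment). For Slc6a19 both NICD CD24hi arrays lay above both untreated CD24hi arrays, and 48.6% of all genes had no overlap between these groups. The difference between the fractions was 3.73 for Slc6a19 and 1.97 for Slc27a4. It was -1.84 for Slc36a4 and -1.61 for Slc5a3. Without NICD CD24hi replicate 2, the array whose control probes stood apart, the adjusted p was 0.183 for Slc6a19, 0.198 for Slc27a4, 0.205 for Slc36a4 and 0.267 for Slc5a3. Groups of 2 arrays are too small to look for single arrays far from the rest.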

How the results depend on the processing

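Of 124 called member differences, refitted 2795 times under the alternatives, 2477 refits kept direction and call, 318 lost the call and 0 reversed. Losses were 17 of 124 without the trend, 17 of 73 with the groups alone, 15 with no filter, 12 with the mean of probe sets, 12 with quantile normalization and at most 8 under any other setting that kept all arrays. The stricter filter left 105 of the 124 differences to refit, and the setting without s and x probe sets left 122. Differences whose gene fell out in this way were counted neither as kept nor as lost. Leaving out 1 array accounted for 219 of the 318 losses, from 1 without Lgr5-ablated CD24lo replicate 1 or CD24hi replicate 1 to 36 without untreated CD24lo replicate 1. With the replicate block 120 of 124 calls stood, and deviations of same-numbered arrays had a median correlation of -0.024 over 45 pairs of groups, with 11 above 0.1 and 15 below -0.1. This gave no sign of a pairing across all groups, and whether fractions of 1 condition came from the same mice is not known. The count of members called in the NICD difference between fractions was 1 with no filter, 0 without the trend (unadjusted p under 0.05 in 23) and 2 with the groups alone. For Lgr5-ablated CD24hi it was 1 with the mean of probe sets and 1 without the trend, and for doxorubicin CD24hi 1 without the trend, 1 with the replicate block and 11 with the groups alone. With each array left out in turn the counts ran from 48 to 56 for the average, 8 to 21 for untreated fractions, 0 to 2 and 0 to 1 for Lgr5-ablated CD24lo and CD24hi, 0 to 2 and 1 to 5 for irradiated, 5 to 21 and 0 to 1 for doxorubicin, 0 to 7 and 1 to 14 for NICD, and 0 to 15 for the NICD difference between fractions. Over all genes that difference had 309 calls, 56 with no filter, 202 with the mean of probe sets, 32 without the trend, 199 with the block and 74 with the groups alone. With the groups alone the all-gene counts went from 28 to 0 and from 96 to 34 for Lgr5-ablated CD24lo and CD24hi, from 476 to 222 for irradiated CD24lo, from 141 to 406 for doxorubicin CD24hi, from 1697 to 866 and from 762 to 446 for NICD CD24lo and CD24hi, and from 4 to 71 for the doxorubicin difference between fractions, which had 1 to 11 elsewhere. The Lgr5-ablated and irradiated differences had 2 and 1, with 1 to 4 and 0 to 2 under the alternatives. The cause was not tested. Centring and quantile normalization moved the median of all genes by less than 0.1. With 2 arrays a group, differences of dim members near the array median (6.87 to 7.45 on the log2 scale) carry the least information.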
